A study of Canis lupus familiaris with 4 samples.

Results

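MYH1, MYH2, MYH7 and MYH8 encode myosin heavy chains of striated muscle, and their transcripts were measured in a comparison of highly malignant with less malignant canine mammary tumours. On the dual-colour Agilent arrays used, 25 of 43603 non-control probes carry the dog RefSeq mRNA accession of one of these genes, which are 4 of 1045 genes that could be named on the array. MYH2 (NM_001076795) had 5 probes, MYH1 (NM_001113717) had 4, MYH8 (NM_001077235) had 2 and MYH7 (NM_001113711) had 14. The genes were chosen by their measured ratio of grade 3 over grade 1, which was high in these data, so their ratios are given as a description, with no test. Each of the 4 arrays held total RNA of both grades. Grade 3, the highest grade of malignancy, carried the Cy5 dye and grade 1 the Cy3 dye on 2 arrays. The other 2 were dye swaps, with grade 3 in Cy3. The titles name tumours, while the protocols describe cultured cancer cells overlaid with sorted monocytes, kept together for at least 72 h and separated by flow cytometry. Which of these the RNA came from is not settled. Breed, age and the number of dogs behind each RNA are not given in the sources used here. The labels call the arrays biological replicates of 4, or on 1 array of 3, without saying which arrays share an extract, and all 4 lay on 1 slide. The p-values given for dyes and other genes therefore rest on the spread among these 4 arrays that the dye term leaves. Limma pools that spread in part over all probes, and it may be technical.

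A myosin heavy chain is the motor protein of the thick filament. It splits ATP and pulls on actin, and the isoform a fibre contains sets how fast that fibre shortens. MYH2 is the fast type IIa isoform and MYH1 the fast type IIx isoform of adult skeletal muscle, MYH8 is the perinatal isoform, made around birth and again in regenerating fibres, and MYH7 is the isoform of slow fibres and of the heart ventricle. Mammary epithelium and its tumours contract through smooth muscle and non-muscle myosins, and these sarcomeric isoforms are not typical of them. In the gene order of the dog assembly UU_Cfam_GSD_1.0, MYH8, MYH4, MYH1, MYH2 and MYH3 follow one another on chromosome 5, with MYH13 before MYH8, and MYH7 lies beside MYH6 on chromosome 8.

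The median signal of an array lay between 289 and 402 units in Cy5 and between 215 and 354.5 units in Cy3, on median local backgrounds of 39 to 41 and 28 to 32 units. No spot was saturated. A probe was tested if grade 3, grade 1 or both were well above background on every array, which held for 35411 probes. Ratios are log2 of grade 3 over grade 1 after background correction with an offset of 50 units and loess within each array. The offset is added to both channels, so by construction it draws the ratios of dim spots towards 0. Errors are the moderated SE of limma's fit over 4 arrays unless an SD is named.

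Of the 25 probes, 17 were tested, and 16 of these were called higher in grade 3 at a limma adjusted p under 0.05 (94.1%), beside 31.1% of all tested probes called higher and 30.4% called lower. The same contrast chose the genes, so nothing is read from that count. Of the 17, 11 were above background on all 4 arrays in grade 1 too. The other 6 passed through their grade 3 signal, 5 of them being above background on 1 to 3 arrays in grade 1 and 1 on none. The remaining 8 probes, all of MYH7, were not tested. A log2 ratio of at least 1 on each of the 4 arrays was found for 12 of the 17, beside 0.918% of all tested probes. Ratios above 0 on each array were found for 16 of the 17, beside 28.7% of all tested probes. The 12 were 4 probes of MYH2, 3 of MYH1, both of MYH8 and 3 of MYH7. Some of the 12 passed the filter only through their grade 3 signal. Both of these counts also come from the contrast that chose the genes, so nothing is read from them either. In bulk RNA, fewer cells of a type and less RNA per cell cannot be told apart.

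**Figure D1:**
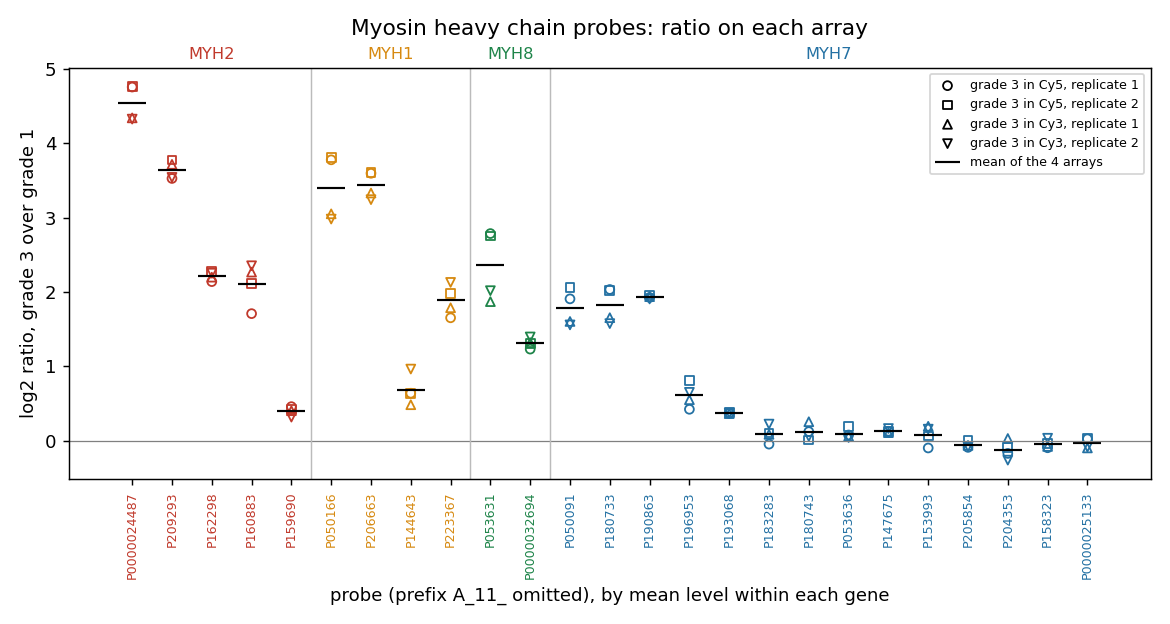
Log2 ratio of grade 3 over grade 1 (vertical axis) for each of the 25 probes (horizontal axis, from the brightest to the dimmest probe within a gene), with 1 symbol per array and a bar at the mean of the 4 arrays. The brightest MYH2 probe sits at 4.55, the dimmest probe of MYH2 at 0.40, and 9 of the 14 MYH7 probes lie under 0.3.

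Among the brightest probes of the 4 genes, that of MYH2, A_11_P0000024487, had the largest ratio. It gave grade 3 signals of 7752 and 6461 units on the arrays with grade 3 in Cy5 and 6889.5 and 7372.5 units on the swapped arrays. Its grade 1 signals were 125 and 129 units in Cy3 and 271.5 and 276.5 units in Cy5. The grade 3 channel thus stood 145 to 250 times over its local background and the grade 1 channel 3.73 to 7.28 times, with no overlap. The log2 ratios were 4.76 and 4.77 with grade 3 in Cy5 and 4.34 and 4.33 on the swapped arrays. Their mean was 4.55 ± 0.05 (SE; SD 0.25, n = 4), or 23.4-fold, which ranked 1 among the 35411 tested probes under this processing. Every array showed the transcript far higher in grade 3, and the arrays with grade 3 in Cy5 gave the larger ratios.

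The other 4 MYH2 probes gave smaller ratios in the same direction on every array. Probe A_11_P209293 read 3.53, 3.77, 3.72 and 3.54, a mean of 3.64 ± 0.06 or 12.5-fold, with its grade 1 signal only 1.81 to 2.08 times over background. Probe A_11_P162298 read 2.14, 2.27, 2.20 and 2.25, a mean of 2.22 ± 0.05 or 4.65-fold, and grade 1 was above background on 3 arrays. Probe A_11_P160883 read 1.71, 2.11, 2.27 and 2.35, a mean of 2.11 ± 0.07 or 4.32-fold, and grade 1 was above background on 1 array. The dimmest, A_11_P159690, read 0.46, 0.42, 0.40 and 0.32, a mean of 0.40 ± 0.05, with grade 3 itself only 1.83 to 3.42 times over background and grade 1 above background on 1 array. The size of the difference at that probe is therefore not known from these arrays.

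For MYH1, the type IIx isoform, both bright probes gave nearly the same mean. The brightest, A_11_P050166, had grade 3 signals of 3847 and 3777.5 units in Cy5 and 2771 and 3484 units in Cy3. Grade 1 read 121 and 149 units in Cy3 and 267 and 336 units in Cy5 on the same arrays. The log2 ratios were 3.78 and 3.81 with grade 3 in Cy5 and 3.05 and 2.98 on the swapped arrays, a mean of 3.40 ± 0.05 (SE; SD 0.45, n = 4) or 10.6-fold. All 4 arrays had grade 3 higher, and the dye orientations did not overlap.

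Probe A_11_P206663 of MYH1 read 3.60, 3.61, 3.33 and 3.24, a mean of 3.45 ± 0.05 or 10.9-fold. The third probe by brightness, A_11_P144643, read 0.64, 0.64, 0.48 and 0.96, a mean of 0.68 ± 0.07 or 1.60-fold. That probe was well above background in both grades on every array, at 8.10 to 14.0 times in grade 3 and 4.09 to 4.63 times in grade 1, so its small ratio was not that of a dim spot. The fourth, A_11_P223367, read 1.65, 1.98, 1.79 and 2.13 and was not well above background in grade 1 on any array. Only a bound can be given for it, and only for ratios with the offset. With the offset, grade 3 was at least 3.59-fold higher. This came from a mean level of 7.98 in grade 3 against 6.14 for the lowest signals counted as above background. The measured grade 1 mean was 6.09 (log2 units). That bound does not hold across settings, as the ratio was 1.90-fold with all local backgrounds left as measured.

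MYH8, the perinatal isoform, had 2 probes, and both gave grade 3 higher on all 4 arrays. The brighter, A_11_P053631, read 1926.5 and 1707 units for grade 3 in Cy5 and 852 and 1059.5 units in Cy3. Grade 1 read 128 and 145 units in Cy3 and 188 and 197.5 units in Cy5. The log2 ratios of 2.79, 2.75, 1.87 and 2.02 had a mean of 2.36 ± 0.05 (SE; SD 0.48, n = 4), or 5.12-fold. It had the widest spread between arrays of the brightest probes, and nearly all of it lay between the dye orientations. The dimmer probe, A_11_P0000032694, read 1.23, 1.31, 1.32 and 1.40, a mean of 1.31 ± 0.05 or 2.49-fold, with grade 1 above background on 3 arrays.

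MYH7, the slow and cardiac isoform, was split between 3 probes with a clear ratio and 11 with a small one or none. The brightest, A_11_P050091, read 859 and 876.5 units for grade 3 in Cy5 and 539.5 and 603 units in Cy3. Grade 1 read 108 and 124.5 units in Cy3 and 149 and 153 units in Cy5. The log2 ratios of 1.91, 2.06, 1.60 and 1.56 had a mean of 1.78 ± 0.05 (SE; SD 0.24, n = 4), or 3.44-fold, and the grades did not overlap.

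Probe A_11_P180733 of MYH7 read 2.03, 2.02, 1.65 and 1.57, a mean of 1.82 ± 0.05 or 3.53-fold. Probe A_11_P190863 read 1.93, 1.96, 1.94 and 1.91, a mean of 1.93 ± 0.05 or 3.82-fold, and showed no shift with the dyes. These 3 MYH7 probes differed by less than the spread of the first across arrays. Probe A_11_P196953 followed at 0.61 ± 0.07, with 0.42 to 0.81 over the arrays, and A_11_P193068 at 0.37 ± 0.05, with 0.36 to 0.38. The last tested probe, A_11_P183283, read -0.05, 0.10, 0.09 and 0.22, a mean of 0.09 ± 0.05, and was not called.

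The 8 untested MYH7 probes had mean log2 ratios from -0.12 to 0.13, and their grade 3 signals were 1.16 to 2.86 times over background. Of these, 3 were above background in some channel and 5 were above background on no array in either grade. For those 5 a ratio near 0 describes the background of the array and gives no level of MYH7.

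**Figure D2:**
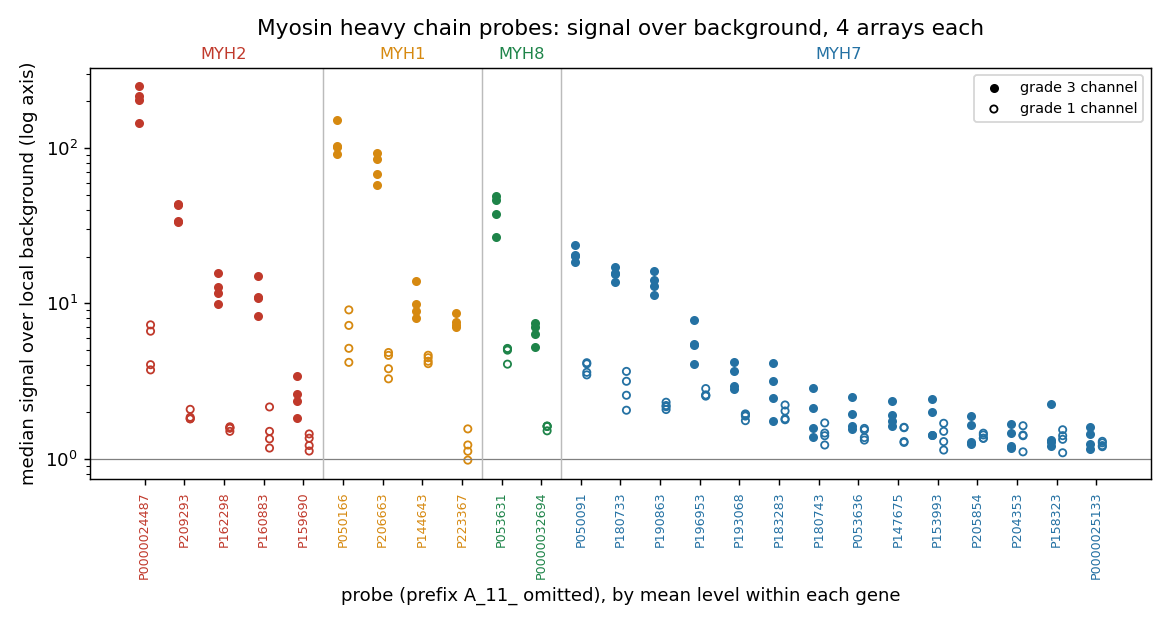
Median signal divided by local background (vertical axis, log scale) for each of the 25 probes (horizontal axis), with filled points for the grade 3 channel and open points for the grade 1 channel on the 4 arrays. The brightest MYH2 probe reaches 145 to 250 in grade 3 against 3.73 to 7.28 in grade 1, while the 8 untested MYH7 probes on the right stay between 1.16 and 2.86 in grade 3.

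Set by their brightest probes, the genes took the order MYH2, MYH1, MYH8 and MYH7 on each array. The log2 ratio of MYH2 exceeded that of MYH1 by 1.14 on average, with 0.96 to 1.34 over the arrays. The ratio of MYH1 exceeded that of MYH8 by 1.05, with 0.96 to 1.18. The ratio of MYH8 exceeded that of MYH7 by 0.58, with 0.27 to 0.88, the smallest step between neighbours. The order rests on which probe stands for a gene. The dimmer MYH8 probe at 1.31 lay under 3 MYH7 probes, and the MYH2 probe A_11_P209293, with 3.53 to 3.77 over the arrays, overlapped the brightest MYH1 probe, with 2.98 to 3.81.

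Probes of 1 gene differed among themselves about as much as probes of different genes did. Over the 32 pairs of tested probes within a gene the median difference in mean log2 ratio was 1.44, and in 27 pairs it had the same sign on all 4 arrays. Over the 104 pairs from different genes the median was 1.43, and 89 pairs kept 1 sign. These medians are of ratios with the offset of 50 units. The span within a gene was 4.15 for MYH2, 2.76 for MYH1, 1.84 for the tested MYH7 probes and 1.04 for MYH8. With Agilent's processed signals, from which the scanner software had removed the background without an offset, the spans were 2.47, 5.09, 2.69 and 0.21, so MYH1 took the place of MYH2 as the widest. Dim probes without grade 1 signal on every array set an end of the span for MYH2, MYH7 and MYH8, and with the processed signals also for MYH1. Probes of 1 gene share a target, so they are no replicates of it. Skeletal myosin paralogs are closely similar in sequence. No probe sequence was used here, and whether a probe of 1 paralog also bound RNA of another was not tested.

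Across probes the ratio followed the signal with the offset, and less closely without it. Over all 25 probes Pearson's r between the mean log2 ratio and the log2 of the mean grade 3 signal over background was 0.963, and over the 14 MYH7 probes it was 0.974. With the processed signals r over the 25 probes was 0.77. The points share the 4 arrays, and the grade 3 signal is the numerator of the ratio, so r is given as a description. The 4 brightest MYH2 probes lay between 2.11 and 4.55 with the offset and between 4.32 and 5.19 with the processed signals. Probes of MYH1 and MYH7 moved apart instead, as their spans show. The MYH1 probe that has only a bound read 1.89 with the offset and 5.96 with the processed signals, and the dimmest MYH2 probe 0.40 and 2.73. Neither probe had grade 1 signal above background on more than 1 array, so these values show how far the correction sets the number and give no size.

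Some probes stayed low under both treatments. MYH1 probe A_11_P144643 read 0.87 with the processed signals, against 3.93 and 4.28 for both bright MYH1 probes. MYH7 probes A_11_P196953 and A_11_P193068 read 0.93 and 1.00, against 2.32, 2.54 and 3.04 for the 3 bright ones. The 8 untested MYH7 probes spread from -0.76 to 0.88.

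**Figure D3:**
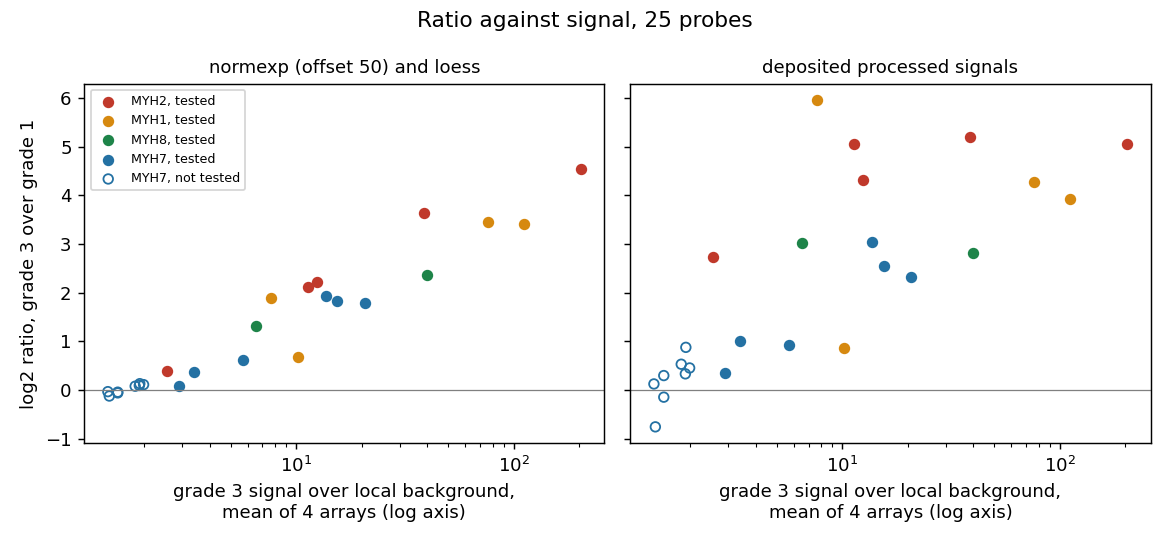
Mean log2 ratio of grade 3 over grade 1 (vertical axes) against the mean grade 3 signal over local background (horizontal axes, log scale) for the 25 probes, with the offset-corrected values on the left and the deposited processed signals on the right. On the left the ratio climbs with the signal (r = 0.963), and on the right it does so less closely (r = 0.77), with the 4 brightest MYH2 probes between 4.32 and 5.19 and the MYH1 probes between 0.87 and 5.96.

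The dye orientation was not used to choose the genes, and its effect was tested as the dye term of the same limma fit. It was called for 6 of the 17 tested probes (35.3%), beside 19.9% of all tested probes, and in all 6 the ratio was larger with grade 3 in Cy5. The term was 0.41 for the brighter MYH8 probe (adjusted p = 0.00168) and 0.39 for the brightest MYH1 probe (adjusted p = 0.00184), meaning that ratios lay that far above and below their mean in the different orientations. It was 0.21 for the brightest MYH2 probe (adjusted p = 0.0147) and 0.20 for the brightest MYH7 probe (adjusted p = 0.0225). The second MYH1 probe, A_11_P206663, had 0.16 (adjusted p = 0.0444) and the second MYH7 probe, A_11_P180733, had 0.21 (adjusted p = 0.0174). The brightest probe of each gene was thus among the 6. In every one of them the grade difference was larger than the dye term, and the ratio stayed positive in both orientations. The MYH2 probe A_11_P160883 leaned the other way at -0.20 and was not called (adjusted p = 0.0562).

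The size of each ratio also moved with the background correction, while the order of the brightest probes did not. The scanner software had marked some local backgrounds as outliers, and each of these had been set to the median background of that array and channel. Among the 25 probes this touched only the dimmest MYH2 probe, on 1 array. The correction is fitted over all spots of an array and channel, so probes whose own backgrounds were unchanged could move too. With all backgrounds left as measured, the brightest probes read 3.65 for MYH2, 2.52 for MYH1, 1.54 for MYH8 and 1.06 for MYH7, and only 4 of 17 tested probes were called, both bright probes of MYH2 and of MYH1. In that setting 6.99% of all tested probes were called higher. With the processed signals the brightest probes read 5.06, 3.93, 2.82 and 2.32.

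**Figure D4:**
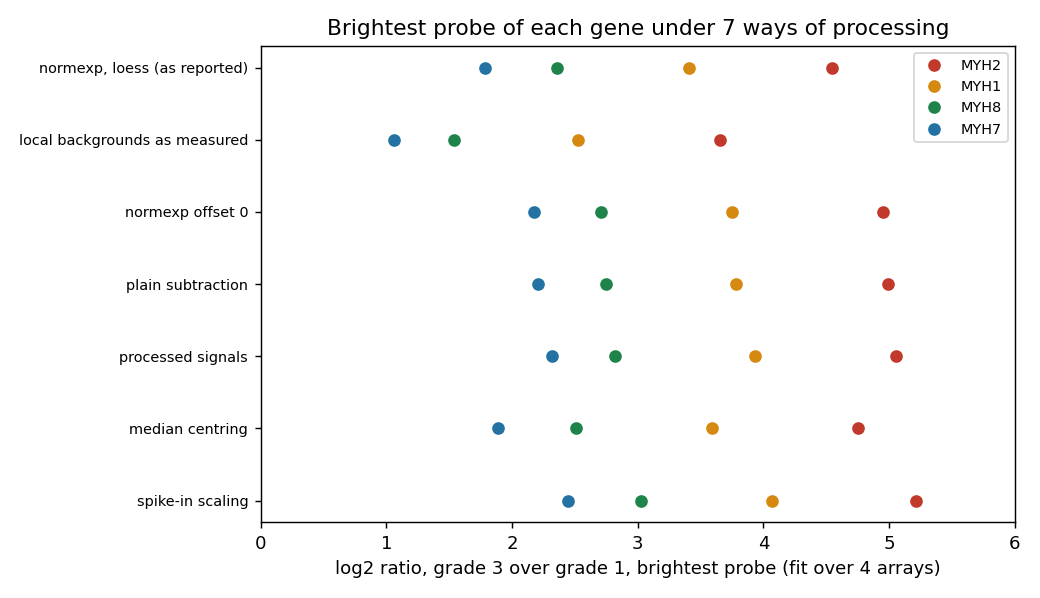
Log2 ratio of grade 3 over grade 1 (horizontal axis) of the brightest probe of each gene under 7 ways of processing (vertical axis), with 1 point per gene. The order MYH2, MYH1, MYH8, MYH7 holds in each of the 7, while MYH2 moves between 3.65 and 5.22 and MYH7 between 1.06 and 2.45. Spike-in scaling raises every ratio by the same amount, so it could not change the order.

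Other myosin heavy chains on the array had small ratios or none. Of 11 such genes listed, 3 had a named probe. MYH9, the heavy chain of non-muscle myosin IIA, which most cells contain, had 3 probes that read 0.54 ± 0.05 (limma adjusted p = 9.34e-06), 0.30 ± 0.07 (adjusted p = 0.00465) and 0.10 ± 0.06 (adjusted p = 0.174). The brightest of them read 0.45, 0.23, 0.73 and 0.74 over the arrays, above 0 on each. MYH3, the embryonic skeletal isoform and the neighbour of MYH2, read 0.03 ± 0.05 (adjusted p = 0.663) on its tested probe, with 0.11, -0.05, -0.04 and 0.09 over the arrays. Its other probe was not tested. MYH4, the fast type IIb isoform between MYH8 and MYH1, had 1 probe that was above background on no array, so it gives no ratio. The tested MYH3 probe was dim as well, with mean levels of 6.80 in grade 3 and 6.77 in grade 1 (log2 units).

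The proteins that work with sarcomeric myosin were mostly not named on this array. Of 50 listed sarcomere partners, 7 were measured, 3 rose and 3 fell in grade 3, with a median log2 ratio of -0.02, beside 24.2% higher and 45.9% lower with a median of -0.09 over 924 named genes. TCAP, the titin cap of the Z disc, rose by its brightest probe, at 1.36, 1.13, 1.29 and 1.27 over the arrays, a mean of 1.26 ± 0.05 or 2.40-fold (limma adjusted p = 1.78e-08). Its other 3 probes read -0.22, -0.18 and -0.12, so the probes of TCAP go in opposite directions. MYL2, the regulatory light chain of slow and ventricular myosin, read 0.39 ± 0.05 (adjusted p = 8.7e-05) on its brightest probe. Its other tested probe read -0.05 (adjusted p = 0.414), and 3 more were not tested. DES, the intermediate filament of muscle cells, read -0.14 ± 0.05 (adjusted p = 0.0355), and MYOZ1, a Z disc protein of fast fibres, -0.27 ± 0.06 (adjusted p = 0.002). Light chain, desmin and Z disc genes did not share 1 direction, and the highest of those measured was TCAP at 1.26.

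Of 39 listed genes of muscle calcium handling, membrane and metabolism, 10 were measured, and 5 rose and 3 fell, with a median of 0.07. Beside them, 24.2% of 924 named genes were higher and 45.9% lower, with a median of -0.09. CA3, the carbonic anhydrase of slow fibres that fat cells also make, rose to 2.34, 2.68, 1.76 and 1.67 over the arrays, a mean of 2.11 ± 0.06 or 4.32-fold (limma adjusted p = 1.15e-09). Its other probes read 1.39 and 1.23. CKMT2, the mitochondrial creatine kinase of striated muscle, rose too on its brightest probe (0.58 ± 0.05, adjusted p = 3.27e-06). Its other probe read 0.18 (adjusted p = 0.00972). The brightest CKMT2 probe read 0.30 with local backgrounds as measured and 1.52 with the processed signals, so its size moved with the correction. ATP2A2, the calcium pump of slow and cardiac muscle that other cells also use, read 0.16 ± 0.06 (adjusted p = 0.0381), on its brightest probe, a call lost in 9 of 15 other settings. Of its other 4 probes 1 read 0.26 (adjusted p = 0.00125) and 3 were called lower, at -0.27, -0.28 and -0.28 (adjusted p from 0.000862 to 0.00362), so ATP2A2 has no single direction here. The same holds for DMD, dystrophin, which counts as higher by its brightest probe at 0.16 (adjusted p = 0.0167) while 3 of its 10 probes were called lower, at -0.81, -0.57 and -0.34. PLN, phospholamban, the inhibitor of that pump, was 1.78-fold lower (-0.83 ± 0.05, adjusted p = 4.32e-07). Of 22 myogenic regulators only IGF2, a growth factor that acts on many tissues, was measured, and it rose 2.63-fold (1.39 ± 0.08, adjusted p = 1.14e-07).

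Markers of other tissues that hold myosin were read beside the 4 genes. Of 21 heart genes 9 were measured, and 1 rose and 4 fell, with a median of -0.10. Over 924 named genes 24.2% were higher and 45.9% lower, with a median of -0.09. The share of heart genes that fell and their median lay near these values. The same shares stand beside the smooth muscle and cartilage counts below. TNNI3, cardiac troponin I, rose 1.36-fold (0.45 ± 0.05, limma adjusted p = 1.57e-05), and NKX2-5, a heart transcription factor, was 1.45-fold lower (-0.53 ± 0.05, adjusted p = 5.54e-06). Of 18 smooth muscle and myoepithelial genes 2 were measured, and both rose slightly. CAV1, the coat protein of caveolae, read 0.25 ± 0.05 (adjusted p = 0.00203) and OXTR, the oxytocin receptor, 0.29 ± 0.06 (adjusted p = 0.00112). Of 13 cartilage genes 4 were measured, and 2 rose and 2 fell. COL2A1, the fibrillar collagen of cartilage, rose 6.96-fold (2.80 ± 0.05, adjusted p = 5.87e-11) and both of its other probes were higher too, at 2.67 and 1.64. ACAN, aggrecan, rose 3.21-fold on its brightest probe (1.68 ± 0.05, adjusted p = 9.96e-10), but its other probe, above background in both grades on all 4 arrays, read 0.01 ± 0.05 (adjusted p = 0.849). SOX9, the cartilage transcription factor, read -0.36 ± 0.05 (adjusted p = 8.36e-05). COL9A2, a further cartilage collagen, read -0.30 ± 0.07 (adjusted p = 0.00283). COL2A1 and IGF2, and ACAN by 1 of its 2 probes, were higher in the same grade as the myosins, while SOX9 and COL9A2 were lower. Whether any of these genes is linked to the myosin ratios was not tested.

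These counts depend on scaling. With arrays scaled to spike-in controls the median of all tested probes moved by 0.67, and 91.1% of tested probes were called higher. All 7 measured sarcomere partners and 7 of 9 heart genes were then called higher, NKX2-5 turned to 0.13 (limma adjusted p = 0.197) and MYH3 read 0.70 (adjusted p = 1.8e-11). With local backgrounds as measured, 1 of 7 sarcomere partners was called higher by limma. For the calcium handling, membrane and metabolism genes the split of 5 higher and 3 lower became 4 and 4 with median centring and 2 and 3 with the processed signals.

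Among 918 other named genes, the 5 nearest to the mean ratios of the brightest MYH1 and MYH2 probes were H19, POU1F1, COL2A1, CSN2 and OPTC. Nearness is the root mean square difference of log2 ratios over the 4 arrays, and the reference pattern was 4.27, 4.29, 3.70 and 3.65. H19, an imprinted non-coding RNA, read 3.23, 2.75, 3.17 and 3.09, a distance of 1.01. POU1F1, a pituitary transcription factor, was not above background in grade 1 on any array. With the offset of 50 units it was at least 7.24-fold higher in grade 3. That bound does not hold across settings, as the ratio was 3.00-fold with local backgrounds as measured. POU1F1 entered by its log2 ratio with the offset, 2.87. This ratio was 1.58 with local backgrounds as measured and 7.35 with the processed signals. Its nearness is therefore set by the correction, and no distance is given. COL2A1 had a distance of 1.18 and read 3.20, 3.06, 2.52 and 2.41. CSN2, the milk protein beta-casein, read 3.59, 3.21, 2.27 and 2.19 (distance 1.21), and OPTC, opticin, a small matrix proteoglycan, read 2.44, 2.81, 2.49 and 2.25 (distance 1.496). H19, COL2A1, CSN2 and OPTC stayed below the myosin pattern on all 4 arrays. Nearness here therefore mostly follows how large a ratio was. The reference was built from the ratios that chose the genes, and a shared profile over the arrays was not tested.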

How the data were processed

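Per the submitters' processing notes, Agilent Feature Extraction 10.7.3.1 was used. Per the file headers, the deposited median signals, local backgrounds and processed signals are linear intensity units. The log10 ratios of the deposited value table matched those of the scanner within 4.99e-06 after turning the swapped arrays. They are therefore grade 3 over grade 1 on each of the 4 arrays, and their column medians were 0.

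Local backgrounds marked as outliers (151 to 2352 per array and channel) were replaced by the median of the array and channel. Values were then computed in R 4.3.3 with limma 3.58.1, using normexp with an offset of 50, loess with control spots at weight 0, and a fit with a grade and a dye term (2 residual and 8.28 prior degrees of freedom). P-values are two-sided and Benjamini-Hochberg adjusted over 35411 tested probes. Marked spots (11 to 39 per array) were left out, and levels follow Aquantile. The test was checked on simulated data.

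Probes were named by RefSeq accession, and 1648 matched a symbol. The brightest probe stood for a gene in lists. Beside all probes of the 4 genes, genes were named as other myosins, as the called list members with a log2 ratio of at least 0.5 in size (at most 3 per direction), as the brightest of each list, and as the 5 nearest genes. MYL2, DES, DMD, MYOZ1, OXTR, SOX9 and COL9A2 were named after their values were seen. The members and lists were chosen with earlier results of these data known. Alternatives covered the background, offset, scaling, dye term, replicate block, filter on dim probes and leaving out each array.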

Additional observations from a re-analysis of the deposited data

Results flagged for a closer look

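The dimmest MYH7 probe, A_11_P0000025133, had a mean log2 ratio of 0.03 with grade 3 in Cy5 and of -0.09 on the swapped arrays, opposite signs that differ by 0.117. The probe was above background on no array in either grade, and the difference was not tested. None of the 25 probes had 1 array standing apart from the other 3 by Dixon's criterion, which by chance would mark about 1 group in 20.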

How the results depend on the processing

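The brightest probes kept their direction and the order MYH2, MYH1, MYH8, MYH7 in all 16 settings. Some of these could not change the order. Dropping the dye term, the replicate block and the changes of filter left the ratios as they were, and the deposited value table repeated the processed signals. Spike-in scaling raised every ratio by the same 0.67, so it could not change the order either. With local backgrounds as measured they read 3.65 (MYH2), 2.52 (MYH1), 1.54 (MYH8) and 1.06 (MYH7), and 2474 probes were called higher and 4802 lower, in place of 11000 and 10771. Processed signals and the deposited value table gave 5.06 for MYH2, 3.93 for MYH1 and 2.32 for MYH7. Plain subtraction gave 4.99 for MYH2 and 2.21 for MYH7, and an offset of 0 gave 4.95 and 2.17. Spike-in scaling gave 5.22 (MYH2), 4.07 (MYH1), 3.02 (MYH8) and 2.45 (MYH7), with 32252 probes higher and 914 lower, and turned NKX2-5 to 0.13. The mean of all of a gene's probes, tested or not, gave 2.58 (MYH2), 2.36 (MYH1), 1.84 (MYH8) and 0.48 (MYH7). The MYH7 mean covers 14 probes, 8 of them untested, and 5 of these were above background on no array in either grade. Every probe of MYH2, MYH1 and MYH8 was tested, so the MYH7 mean cannot be set beside theirs as a gene level. Why the ratios moved between settings was not tested. Leaving out each array in turn gave 4.54 to 4.55 for MYH2, 3.39 to 3.42 for MYH1, 2.32 to 2.39 for MYH8 and 1.74 to 1.82 for MYH7. These fits kept the dye term and so still averaged both dye orientations. The spread between orientations therefore cannot show in these ranges. The SDs over the 4 arrays were 0.25, 0.45, 0.48 and 0.24 in the same order of genes.

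The replicate block left the ratios as they were (4.55 for MYH2) and called 10909 probes higher. Arrays sharing a number had a correlation of deviations of -0.091, and arrays with different numbers 0.091. With 2 arrays per dye orientation these are the same value with its sign turned. Whether arrays sharing a number also share an extract was not tested. Besides ATP2A2, other genes followed by name lost calls in limma's test. Without the dye term it was CAV1 (adjusted p = 0.0784), and with spike-in scaling PLN (adjusted p = 0.118). With backgrounds as measured, CKMT2, TNNI3, NKX2-5, PLN and POU1F1 lost theirs (adjusted p from 0.0643 to 0.146). MYL2, DES, MYOZ1, DMD, OXTR, SOX9 and COL9A2 were not followed by name. In that setting 1 of 7 sarcomere partners, 1 of 10 calcium handling, membrane and metabolism genes and 1 of 2 smooth muscle genes were called. TCAP, CA3 and CAV1 kept their calls there, so the brightest probes of MYL2, DES, MYOZ1, DMD and OXTR were not called. Signal over background limits 14 of the 25 probes, of which 8 were not tested and 6 lacked grade 1 signal on at least 1 array.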
